A study of Mus musculus with 9 samples.

Results

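Among the 19935 genes measured in mouse testis, 741 carried a symbol ending in Rik, and 81 of these rose between 16 and 24 days of age after little or no increase from 8 to 16 days. A Rik symbol is a placeholder: it is the number of a complementary DNA clone of the RIKEN institute, kept for a gene until a functional name is given. The genes were chosen by their values, as those whose mean at 16 days exceeded the mean at 8 days by less than 0.5 on the log2 scale, and whose mean at 24 days exceeded that at 16 days by at least 1, a 2-fold rise. These thresholds used all 9 arrays, so that the rises below are a description of the chosen genes and not a test of them.

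Whole testis of untreated male Swiss albino mice was profiled at 8, 16 and 24 days with 3 arrays per age, which the design text calls biological replicates. Replicates 1 and 2 are the arrays numbered so in their titles, and replicate 3 is the array with no number. The deposited values are log2 values relative to the median of each array row over the 9 arrays. No source used here states the base of the logarithm, which was taken as 2, so every fold rests on that reading. Centring by row leaves changes with age and removes the level itself, so that a value near 0 does not say whether a transcript was absent or merely steady. In whole testis, fewer cells of a type and less RNA per cell cannot be told apart.

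The first wave of spermatogenesis advances in step in young mice, so that the most advanced germ cell changes with age. Spermatogonia and early meiotic cells are followed by pachytene spermatocytes, in which the X and Y chromosomes are silenced, and then by haploid round spermatids. Spermatids transcribe many genes that are used in no other tissue, for the acrosome, the flagellum and the packing of chromatin, and store many of these transcripts for later translation. Clone collections from adult testis captured a large number of such transcripts before their proteins were studied.

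The known stage markers placed the arrays in this order. Of 12 spermatid markers, 11 rose between 16 and 24 days by limma (adjusted p under the 0.05 threshold). Between 8 and 16 days 0 of 12 passed by adjusted or by unadjusted p. The exception in the second interval was the kinase gene Tssk6, with a difference of 0.31. All 8 pachytene markers rose between 8 and 16 days and 5 of the 8 rose again between 16 and 24 days, with a median difference of 0.58 in the second interval. In that interval 8 of 8 spermatogonial markers fell. Of markers of other cells, 5 of 7 Sertoli markers fell and none rose in the second interval, 1 of 5 Leydig markers rose and 1 fell, and 0 of 5 epididymal, 5 macrophage and 1 red cell markers passed by adjusted or by unadjusted p. In this interval 13.2% of all genes rose and 20.1% fell. The 1027 olfactory receptor genes, most of which are known from the nose, stood at 0.17 (median) in the first array of 8 days and in the second of 16 days, against -0.05 to 0.03 elsewhere. Without these 2 arrays the rule found 85 genes, 80 of them among the 81.

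**Figure D1:**
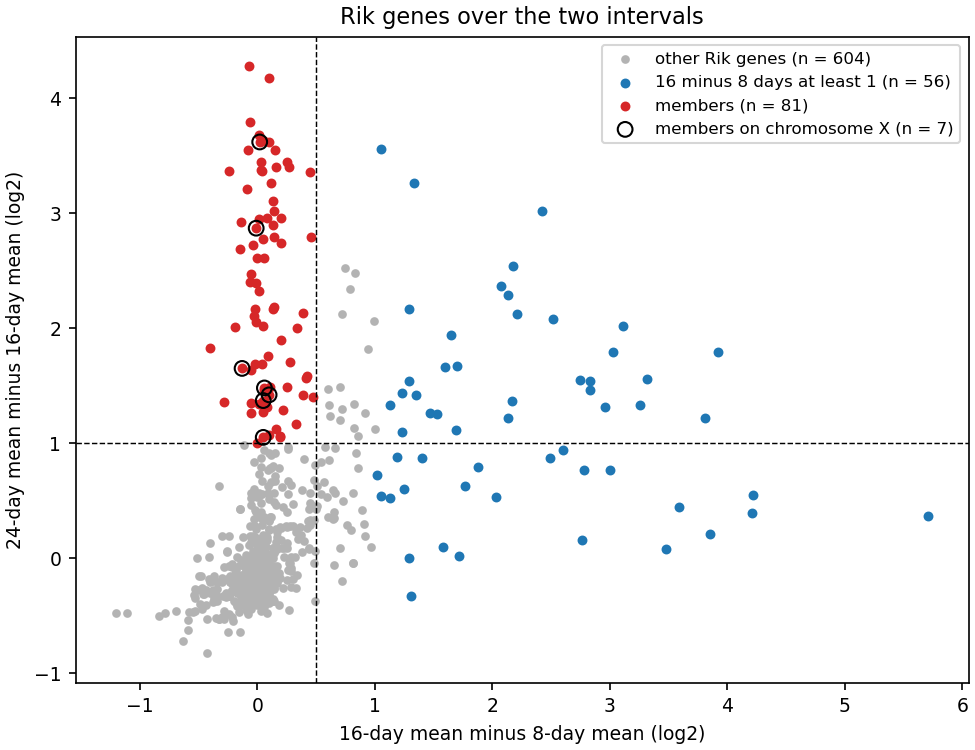
Each point is 1 of 741 Rik genes, placed by its difference between 16 and 8 days (horizontal, log2) and between 24 and 16 days (vertical, log2), with dashed lines at the thresholds of 0.5 and 1. The 81 chosen genes (members) form the column at the upper left, with a median of 0.06 on the horizontal and 2.17 on the vertical axis, and 7 ringed genes lie on chromosome X.

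Between 16 and 24 days the 81 genes rose by 1.00 to 4.28 on the log2 scale, with a median of 2.17. The difference from 8 to 16 days ranged from -0.40 to 0.47, with 24 genes below 0 and 57 at or above it. Between 24 and 16 days 21 genes rose by 3 or more, 27 by 2 to below 3 and 33 by 1 to below 2. For comparison, the median difference over all 19935 genes was -0.16 in that interval. The lowest array of 24 days lay above all 6 younger arrays in 81 of the 81 genes, as it did in 14.9% of all genes. Between 8 and 16 days, the arrays of the ages stood apart in 4 genes that were higher and 3 that were lower at 16 days. The shares over all genes were 14.7% and 21.5%. The rule limits a rise in this interval but sets no limit on a fall, and the small number of falls was not tested.

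By limma, 81 of 81 rose between 16 and 24 days (13.2% of all genes rose) and 81 of 81 rose between 8 and 24 days (19.2% of all genes). Between 8 and 16 days 1 rose and 1 fell, where 10.4% and 14.3% of all genes did, or 24.7% in either direction. Since the rule used these contrasts, nothing is read from these counts. The gene that rose was 1700008O03Rik and the one that fell was 2610318N02Rik. Without replicate 2 or 3 of 8 days, any 1 replicate of 16 days, or replicate 3 of 24 days, the test called 1 gene, which rose, in place of 2.

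**Figure D2:**
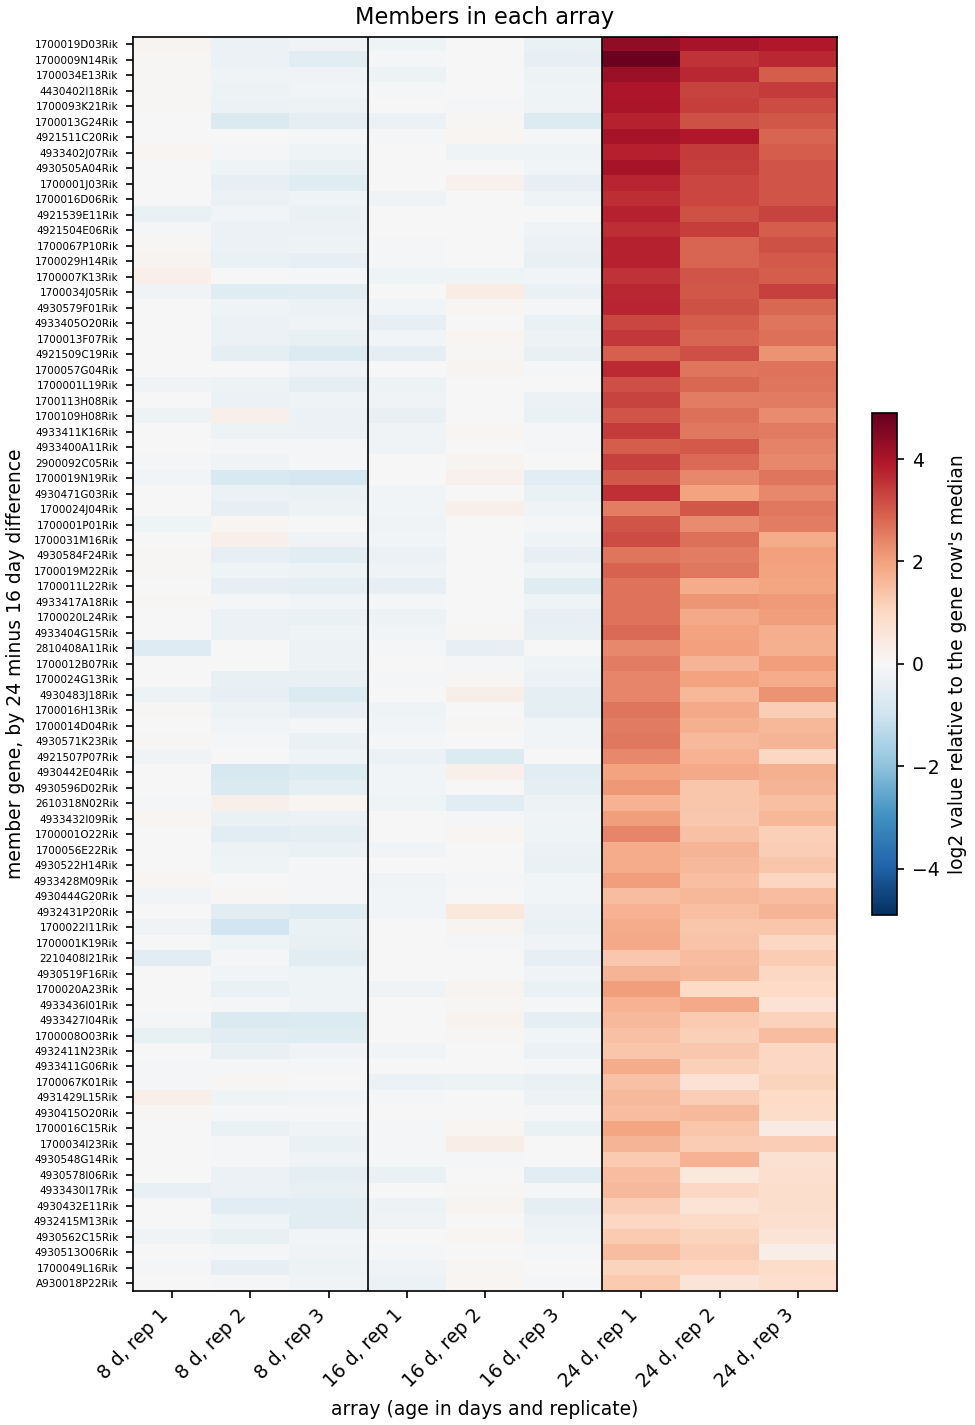
Rows are the 81 genes in order of their rise from 16 to 24 days, columns are the 9 arrays, and colour gives the log2 value relative to the median of the gene's row, averaged where a gene has 2 rows. The 6 younger arrays are near 0 (from -0.92 to 0.50), while the arrays of 24 days run from 0.31 to 4.81, mostly highest in replicate 1.

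The largest rise was that of 1700019D03Rik (gene ID 67080, chromosome 1), also named smAKAP, a small membrane-bound protein that anchors the cAMP-dependent protein kinase. Its log2 values were 0.15, -0.28 and -0.16 in replicates 1, 2 and 3 of 8 days, -0.20, 0.00 and -0.31 at 16 days, and 4.35, 4.05 and 3.93 at 24 days. The rise from 16 to 24 days was 4.28 ± 0.15 (limma's standard error, 3 arrays per age), or 19.4-fold. All 3 arrays of 24 days stood together, far above the other 6. For 1700009N14Rik (gene ID 75471, chromosome 4), the values were 0.05, -0.28 and -0.57 at 8 days, -0.10, 0.00 and -0.39 at 16 days, and 4.81, 3.56 and 3.68 at 24 days. Here replicate 1 of 24 days was higher than the other two by over 1 log2 unit, and the rise was 4.18 ± 0.30, or 18.2-fold.

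In 1700034E13Rik (gene ID 78414), the arrays read 0.04, -0.18 and -0.18 at 8 days, -0.25, 0.00 and -0.25 at 16 days, and 4.23, 3.68 and 2.96 at 24 days. The rise was 3.79 ± 0.26, with a wide spread at 24 days although all 3 arrays stayed far above the younger ages. The fourth, 4430402I18Rik (gene ID 381218, chromosome 19), also named Spata6l, is a relative of Spata6, which is needed for the junction of sperm head and tail. It read 0.04, -0.23 and -0.15 at 8 days, -0.11, 0.00 and -0.21 at 16 days, and 3.98, 3.32 and 3.42 at 24 days, a rise of 3.68 ± 0.16. 1700093K21Rik (gene ID 67358, chromosome 11) read 0.06, -0.28 and -0.25 at 8 days, 0.00, -0.10 and -0.19 at 16 days, and 4.01, 3.40 and 3.18 at 24 days, a rise of 3.63 ± 0.19. In both genes the arrays of 8 and 16 days overlapped and those of 24 days stood apart.

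1700013G24Rik (gene ID 69380, chromosome 4) had a wider spread at the younger ages, with 0.00, -0.72 and -0.49 at 8 days and -0.28, 0.04 and -0.66 at 16 days, against 3.78, 3.13 and 3.06 at 24 days. The pseudogene 4921511C20Rik (gene ID 245598) on chromosome X was among the flattest before its rise, with 0.00, -0.03 and -0.11 at 8 days, -0.09, 0.11 and -0.10 at 16 days, and 4.02, 3.91 and 2.86 at 24 days. Both genes rose by 3.62 ± 0.25. In the X-linked gene replicate 3 of 24 days was the low array and the other two agreed within 0.11, whereas in 1700013G24Rik replicate 1 was the high one. For 4933402J07Rik (gene ID 330820, chromosome 8), 0.08, -0.08 and -0.20 at 8 days and 0.00, -0.22 and -0.22 at 16 days were followed by 3.82, 3.44 and 2.96 at 24 days. 4930505A04Rik (gene ID 75087, chromosome 11) went from -0.01, -0.21 and -0.36 at 8 days and 0.00, 0.03 and -0.15 at 16 days to 4.05, 3.37 and 3.09 at 24 days. Both rose by 3.55, with standard errors of 0.19 and 0.21.

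The remaining 3 of the 12 largest rises had close arrays at 24 days. 1700001J03Rik (gene ID 69282, chromosome 5) read 0.00, -0.40 and -0.59 at 8 days, -0.02, 0.20 and -0.41 at 16 days, and 3.74, 3.27 and 3.09 at 24 days. 1700016D06Rik (gene ID 76413, chromosome 8) read 0.00, -0.28 and -0.21 at 8 days, -0.18, 0.00 and -0.22 at 16 days, and 3.60, 3.26 and 3.08 at 24 days. These 2 genes rose by 3.45, with standard errors of 0.21 and 0.14. In 4921539E11Rik (gene ID 70941, chromosome 4), the values were -0.31, -0.15 and -0.34 at 8 days, -0.02, 0.03 and 0.00 at 16 days, and 3.77, 3.13 and 3.33 at 24 days, a rise of 3.40 ± 0.14. It was one of the 4 genes whose arrays of 16 days all lay above those of 8 days, by a mean of 0.27.

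**Figure D3:**
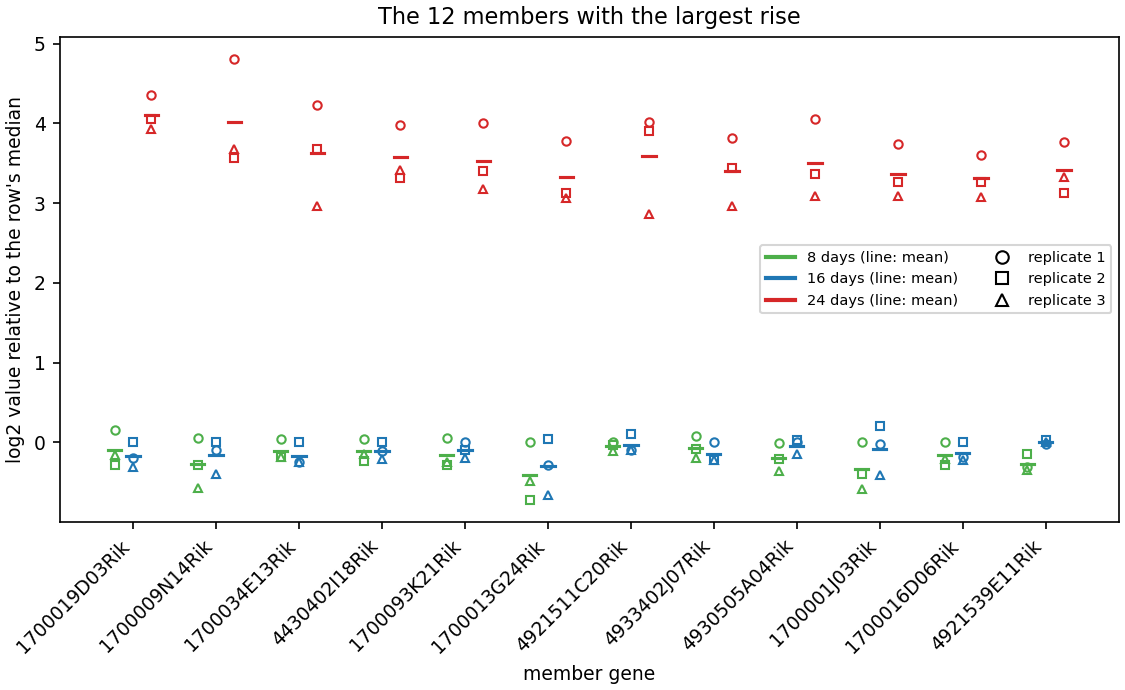
For the 12 genes with the largest rise, log2 values relative to the row's median are plotted for each array, with the age by colour, the replicate by symbol and the mean of 3 arrays as a line. The arrays of 8 and 16 days lie between -0.72 and 0.20 and those of 24 days between 2.86 and 4.81, with replicate 1 (circles) uppermost in each of the 12 genes.

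The most negative differences from 8 to 16 days were -0.40 ± 0.12 in 2610318N02Rik, -0.28 ± 0.16 in 1700067K01Rik and -0.24 ± 0.15 in 1700007K13Rik, of which the first alone passed the test. 1700007K13Rik, also named Rbest47, is known as Pierce1 and encodes a protein inside the microtubules of cilia and flagella. It read 0.25, 0.00 and -0.09 at 8 days, -0.20, -0.22 and -0.12 at 16 days, and 3.53, 3.08 and 2.95 at 24 days, so that the younger ages did not overlap. 1700067K01Rik read -0.07, 0.04 and 0.00 at 8 days, -0.30, -0.23 and -0.34 at 16 days, and 1.43, 0.69 and 1.09 at 24 days. 2610318N02Rik is the only one of the 81 genes with 2 array rows, and the rows did not move alike. Its mean of the rows was -0.09, 0.23 and 0.09 at 8 days, -0.22, -0.50 and -0.26 at 16 days, and 1.70, 1.37 and 1.46 at 24 days, with no overlap between any of the ages. One row differed by 3.75 between 24 and 16 days and the other by -0.09, so that its mean rise of 1.83 describes neither.

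The genes just inside the second threshold were A930018P22Rik with a rise of 1.001, 1700049L16Rik with 1.053, 4930513O06Rik with 1.054 and 4930562C15Rik with 1.055. Those just outside were 4930562F07Rik with 0.981, 4933428G20Rik with 0.968, 4930556L07Rik with 0.954 and 2010109A12Rik with 0.941. At the first threshold, 1700008O03Rik with 0.474, 1700019N19Rik with 0.459, 1700034J05Rik with 0.448 and 4932431P20Rik with 0.418 were inside, and 1700018B08Rik with 0.603, 1700080O16Rik with 0.605, 1700055D18Rik with 0.618 and 1700030J22Rik with 0.699 were outside, with no Rik gene that met the second threshold between 0.474 and 0.603. In all, 130 Rik genes rose by at least 1 from 16 to 24 days, and 49 of them had already risen by 0.5 or more at 16 days.

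The arrays of 24 days differed from each other in the same direction in most of the genes. Replicate 1 was highest in 72 of 81 genes, replicate 2 in 8 and replicate 3 in 1, with medians of 2.54, 1.85 and 1.81. The exception with replicate 3 highest was 1700008O03Rik, at 1.45, 1.18 and 1.51 in replicates 1, 2 and 3. Of the 521 non-Rik genes past both thresholds, 475 had replicate 1 highest, with medians of 2.06, 1.62 and 1.44 in replicates 1, 2 and 3. Replicate 1 was highest in 28 of the 56 Rik genes that rose by at least 1 at 16 days. Spermatid markers had the order of the 81 genes at the top, with replicate 1 highest in 12 of 12 markers and medians of 4.31, 3.67 and 3.28. Pachytene markers did not share it, with medians of 0.68, 0.68 and 0.66 and replicate 1 highest in 3 of 8. The part of these markers in the spread was not tested. Within a gene, the 3 arrays of 24 days spanned from 0.13 in 4930444G20Rik (1.52, 1.64 and 1.51) to 1.63 in the long non-coding RNA 4930471G03Rik (3.59, 1.96 and 2.34). The median SD over the 81 genes was 0.38 at 24 days, 0.15 at 16 days and 0.17 at 8 days (n = 3). Without replicate 1 of 24 days the rule found 75 genes, 74 of them among the 81.

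None of the matched genes has gained a new symbol in the RefSeq gene table used here, which is of the assembly GRCm38.p6 and matched 78 of the 81. The same held for all 710 matched Rik genes, so that it is no trait of the 81. A synonym other than a Rik name, a Gm number or a number starting with AA, AI, AL or AW was listed for 8 of them. Beside smAKAP, Spata6l and Rbest47, these are b2b3025Clo for 1700093K21Rik, C10orf53 for 1700024G13Rik (rise 2.17 ± 0.16), TISP74 for 4921507P07Rik (2.01 ± 0.29), Ppnx for 4930519F16Rik (1.48 ± 0.16) and bN189G18.7 for 4933430I17Rik (1.17 ± 0.16). TISP names were given to transcripts that increase in spermiogenesis. 4921507P07Rik read -0.17, 0.00 and -0.20 at 8 days, -0.27, -0.67 and 0.00 at 16 days and 2.36, 1.69 and 1.02 at 24 days, with no overlap between 24 days and the younger ages.

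Most of the genes encode proteins. Of the 78 matched genes, 61 (78.2%) are protein-coding, 10 are long non-coding RNAs, 5 are pseudogenes and 2 are of another RNA type. Among the Rik genes outside the rule, 45.3% of 632 matched genes are protein-coding and 48.3% are long non-coding RNAs. Among the 55 matched Rik genes that were higher by at least 1 at 16 days than at 8 days, 67.3% are protein-coding and 27.3% are long non-coding RNAs. Counted the other way, 17.6% of 347 protein-coding Rik genes and 3.2% of 315 long non-coding Rik genes met the rule. The coding and non-coding groups rose to a like extent, with a median of 2.18 (range 1.00 to 4.28) in the 61 and 2.22 (range 1.07 to 3.38) in the 10. The largest rise of a long non-coding RNA was that of 1700067P10Rik (gene ID 68224, chromosome 17), which read 0.04, -0.27 and -0.26 at 8 days, -0.10, 0.00 and -0.30 at 16 days, and 3.76, 2.85 and 3.13 at 24 days. The smallest was that of 4932415M13Rik, at 1.03, 0.92 and 0.83 at 24 days. The other 8 were 4930471G03Rik, 1700031M16Rik, 4930584F24Rik, 4933404G15Rik, 4930483J18Rik, 4930442E04Rik, 4933432I09Rik and 4930548G14Rik. A comparison of these shares was not tested.

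The clone numbers carry a trace of where a gene was first found, since the first 4 characters of a RIKEN clone name stand for its library, and 1700, 4921, 4930, 4931, 4932 and 4933 are libraries of adult testis. The 6 prefixes were taken from names among the 81 genes, so that a testis library with none of the 81 counts among the others. Of the 81 genes, 75 (92.6%) had one of these 6 prefixes, among them 37 with 1700, 17 with 4930 and 12 with 4933. Of the Rik genes outside the rule, 35.5% had one, but of the 56 that were higher by at least 1 at 16 days than at 8 days, 94.6% did. Of the 309 Rik genes with these prefixes 24.3% met the rule and a further 17.2% had risen by at least 1 at 16 days. Of the 432 with other prefixes 1.4% met the rule, namely 4430402I18Rik, 2900092C05Rik (rise 2.79 ± 0.20), 2810408A11Rik (2.18 ± 0.19), 2610318N02Rik, 2210408I21Rik (1.49 ± 0.16) and A930018P22Rik (1.00 ± 0.16). Of these, 2810408A11Rik also has the synonyms 1700019L01Rik and 4930470J18Rik, which carry testis prefixes. Within the 6 prefixes, 33.3% of 165 protein-coding and 9.0% of 111 long non-coding genes met the rule, so that coding genes had the larger share there also. Of non-Rik genes, 2.71% passed both thresholds, against 10.9% of all Rik genes.

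**Figure D4:**
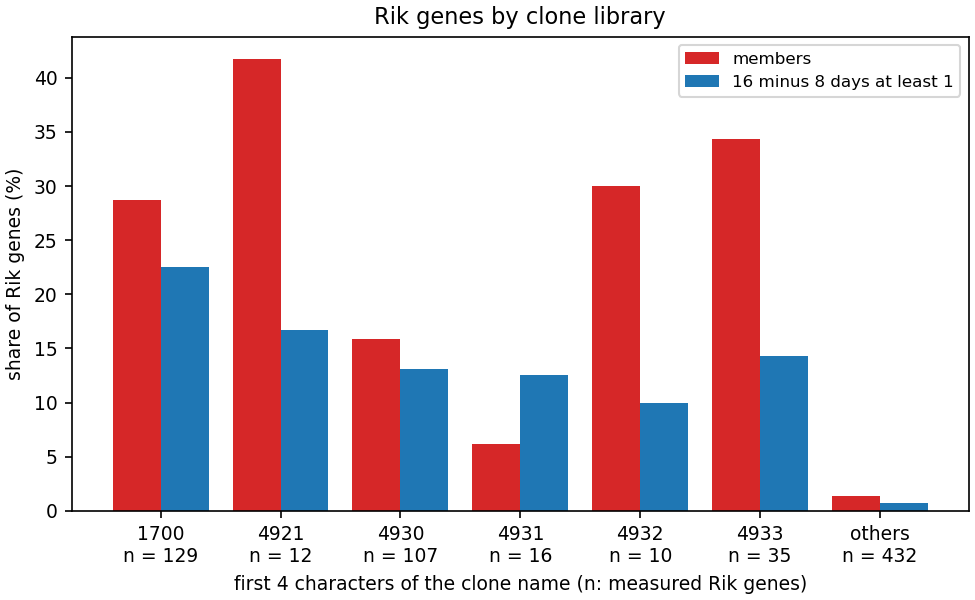
Bars give the share of measured Rik genes that met the rule (members, red) and that rose by at least 1 from 8 to 16 days (blue), by the library prefix of the clone name, with the number of measured genes under each prefix. The red share runs from 6.2% to 41.7% in the 6 testis libraries and is 1.4% in the others.

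Of the 81 genes, 7 lie on chromosome X, which is 9.0% of the matched genes and compares with 3.7% of all measured genes. Of 55 matched Rik genes that were higher by at least 1 at 16 days than at 8 days, 0 are X-linked. Of 35 X-linked Rik genes 7 met the rule, against 10.5% of 675 on other chromosomes. The same order held outside the Rik genes, where 6.0% of 704 X-linked genes and 2.6% of 18435 others passed both thresholds, while 0.4% and 3.9% rose by at least 1 at 16 days. These shares were not tested, and the X-linked genes include multicopy families. The 7 rose by a median of 1.48 (range 1.05 to 3.62). Beside 4921511C20Rik, the pseudogene 4933400A11Rik read 0.00, -0.10 and -0.09 at 8 days, -0.18, 0.02 and -0.06 at 16 days, and 2.95, 3.02 and 2.43 at 24 days. 4933428M09Rik read 2.05, 1.46 and 1.07 at 24 days, 4930519F16Rik 1.67, 1.57 and 1.03, and 4932411N23Rik 1.34, 1.33 and 1.03. 4930513O06Rik read 1.52, 1.22 and 0.31, and 4933436I01Rik 1.71, 1.85 and 0.71. Replicate 3 was the lowest array of 24 days in each of the 7, as it was in 54 of all 81. The autosomal genes were spread over all 19 autosomes, with at most 6 on any of them.

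Sequences before the start sites were compared next, since they were not used to choose the genes. RefSeq windows of 300 bases (GRCm38.p6), from 250 bases before to 50 after an annotated start, were at hand for 58 of the 81 genes, and for a gene with several starts the most upstream was taken. The windows were poor in CpG, with a median of 3 CpG dinucleotides, against 9 in the 45 windows of Rik genes that rose by at least 1 at 16 days, 10 in 507 Rik genes outside the rule, 15 in 15560 measured genes and 7 in all 27025 genes with a window. Of the 58 windows, 36 (62.1%) held 5 CpG or fewer, a share that was 35.6% in the genes that rose by 16 days 28.0% in all measured genes and 43.6% in all genes with a window. Of 9 spermatid marker windows, 77.8% did. The median GC content was 49.5%, against 57.7% in all measured genes and 52.7% in all genes with a window. Coding and long non-coding genes had like medians, of 3 and 2.5 CpG.

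**Figure D5:**
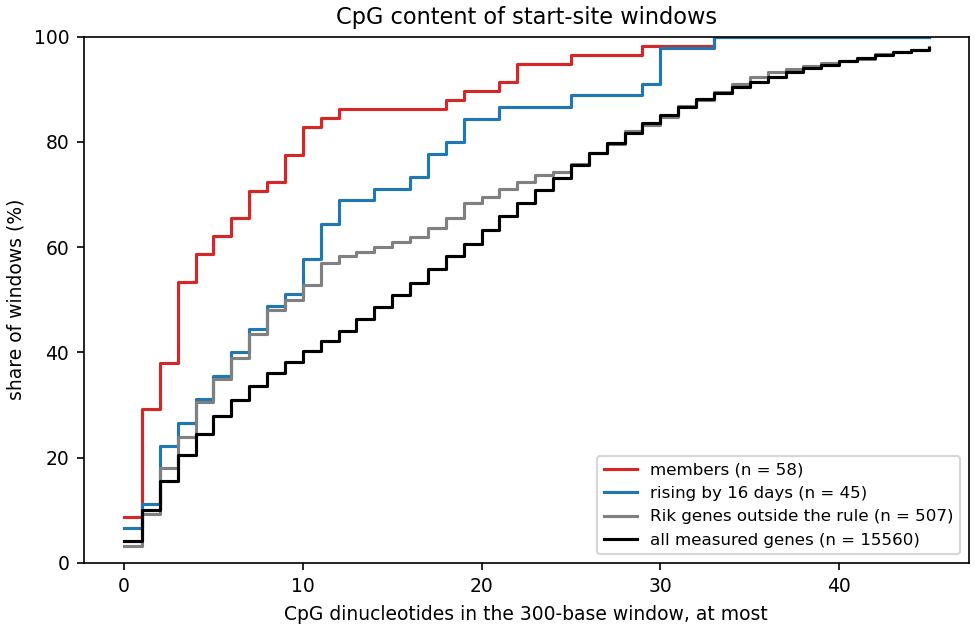
Each line gives the share of start-site windows (vertical, %) that hold at most a given number of CpG dinucleotides (horizontal). The line of the 58 windows of the chosen genes (members) lies above the others from 0 to 30 CpG, with 62.1% of windows at 5 or fewer against 28.0% for all measured genes.

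Short motifs of regulators of meiosis and spermiogenesis were searched on both strands. GTTGCC is 1 arm of the site bound by RFX factors, ACAATG holds the core of a SOX site, TGACGT is most of the cAMP response element bound by CREM, and 4 forms of the MYB site were taken, namely CAACGG, with CAACTG as the second, TAACGG as the third and TAACTG as the last. GTTGCC was found in 15 of 58 windows (25.9%), against 12.7% of the windows of all 27025 genes with one. ACAATG was found in 16 (27.6%), against 12.8%. TGACGT was found in 1 (1.7%), against 7.6%, and TATAAA in 4 (6.9%), against 14.2%. A MYB form was found in 22 (37.9%), against 28.2% in all windows and 60.0% in the 45 windows of Rik genes that rose by 16 days, of which 22.2% held GTTGCC and 11.1% held ACAATG. In 2 of the 58 windows the GTTGCC and MYB matches overlapped, and 15 of the 58 held none of the motifs. Of the 9 spermatid marker windows, 0 held GTTGCC, 4 held ACAATG and 1 held a MYB form. Of the 507 windows of Rik genes outside the rule, 68 held GTTGCC, 61 held ACAATG and 162 held a MYB form. TATAAA was found in 44 of these 507 (8.7%), near the share in the chosen genes, and TGACGT in 45 (8.9%). ACAATG is commoner where CpG are few. Among windows with 5 or fewer CpG it was found in 30.6% of 36 of the chosen genes and in 19.7% of all measured genes. GTTGCC was found in 25.0% and 10.4% of these. Among windows with over 5 CpG, ACAATG was found in 22.7% of 22 of the chosen genes and in 6.4% of all measured genes, and GTTGCC in 27.3% and 13.1%. A match is a description of letters and not of a bound site, and these shares were not tested.

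The windows of 7 genes are shown because they set CpG-poor windows with motif matches beside windows with more CpG, in lower case with motif matches in capitals. 4430402I18Rik (chr19:28967783-28968082, minus strand) holds 10 CpG and GTTGCC on the reverse strand, and 1700034J05Rik (chr6:146954372-146954671, minus strand) holds no CpG, a GTTGCC and a MYB form. 1700113H08Rik (chr10:87057796-87058095, plus strand) has ACAATG on the reverse strand 1 base from GTTGCC. 4930596D02Rik (chr14:35811929-35812228, minus strand) holds no CpG and 1 match each of 3 kinds. Of the X-linked genes, 4933436I01Rik (chrX:67921401-67921700, minus strand) holds 4 matches, and 4933428M09Rik (chrX:139178978-139179277, plus strand) is the one gene with TGACGT. 4930483J18Rik (chr15:81190603-81190902, plus strand) is a long non-coding RNA with 33 CpG, the most of the 58.
4430402I18Rik: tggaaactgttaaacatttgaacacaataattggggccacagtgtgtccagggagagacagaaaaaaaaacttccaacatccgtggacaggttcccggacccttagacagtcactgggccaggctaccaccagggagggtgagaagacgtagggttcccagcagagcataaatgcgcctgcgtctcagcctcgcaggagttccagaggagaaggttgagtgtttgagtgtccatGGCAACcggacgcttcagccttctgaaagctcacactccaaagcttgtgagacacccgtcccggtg
1700034J05Rik: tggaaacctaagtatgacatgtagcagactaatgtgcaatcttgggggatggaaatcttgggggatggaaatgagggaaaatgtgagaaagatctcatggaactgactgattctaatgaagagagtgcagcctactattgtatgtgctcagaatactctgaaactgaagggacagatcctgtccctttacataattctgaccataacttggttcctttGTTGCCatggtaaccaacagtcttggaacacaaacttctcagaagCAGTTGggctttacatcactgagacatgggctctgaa
1700113H08Rik: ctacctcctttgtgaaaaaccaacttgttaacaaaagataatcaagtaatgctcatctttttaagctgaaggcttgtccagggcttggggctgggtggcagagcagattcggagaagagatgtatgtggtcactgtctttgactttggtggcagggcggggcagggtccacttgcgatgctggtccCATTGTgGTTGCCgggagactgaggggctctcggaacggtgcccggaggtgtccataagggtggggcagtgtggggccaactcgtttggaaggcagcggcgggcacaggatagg
4930596D02Rik: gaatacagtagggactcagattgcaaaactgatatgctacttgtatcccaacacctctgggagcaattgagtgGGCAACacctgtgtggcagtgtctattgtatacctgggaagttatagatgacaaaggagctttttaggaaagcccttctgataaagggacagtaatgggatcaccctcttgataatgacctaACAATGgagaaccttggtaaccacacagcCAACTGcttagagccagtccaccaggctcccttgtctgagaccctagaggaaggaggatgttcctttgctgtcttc
4933436I01Rik: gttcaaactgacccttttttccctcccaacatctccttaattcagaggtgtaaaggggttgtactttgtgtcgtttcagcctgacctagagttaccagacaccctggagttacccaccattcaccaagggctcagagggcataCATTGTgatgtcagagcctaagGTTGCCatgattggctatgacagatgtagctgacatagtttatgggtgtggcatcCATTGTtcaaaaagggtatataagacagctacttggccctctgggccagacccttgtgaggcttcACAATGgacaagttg
4933428M09Rik: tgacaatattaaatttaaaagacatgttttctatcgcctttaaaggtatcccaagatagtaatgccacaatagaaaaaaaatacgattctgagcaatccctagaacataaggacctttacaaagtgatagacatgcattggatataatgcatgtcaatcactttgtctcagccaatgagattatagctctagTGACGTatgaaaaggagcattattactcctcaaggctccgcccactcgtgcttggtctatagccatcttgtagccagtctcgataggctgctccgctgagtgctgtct
4930483J18Rik: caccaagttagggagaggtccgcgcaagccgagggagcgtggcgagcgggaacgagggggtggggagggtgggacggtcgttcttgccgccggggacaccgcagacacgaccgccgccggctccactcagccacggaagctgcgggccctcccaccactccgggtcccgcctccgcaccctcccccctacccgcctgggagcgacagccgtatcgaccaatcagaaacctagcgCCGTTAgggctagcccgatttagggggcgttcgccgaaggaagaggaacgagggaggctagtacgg

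These genes did not share one size of rise. From 16 to 24 days, 1700034J05Rik rose by 3.36 ± 0.21, with 3.71, 3.05 and 3.34 in replicates 1, 2 and 3 of 24 days, and 1700113H08Rik by 2.95 ± 0.20, with 3.33, 2.52 and 2.54. The CpG-rich 4930483J18Rik, at 2.40, 1.63 and 2.19, rose by 2.13 ± 0.23 and 4930596D02Rik, at 2.13, 1.37 and 1.65, by 1.90 ± 0.22. 4933428M09Rik rose by 1.65 ± 0.20 and 4933436I01Rik by 1.42 ± 0.24. In each of these genes the arrays of 24 days lay above all others.

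The genes next to the 81 were examined after the 81 were known. For each matched gene, the nearest other measured gene in the RefSeq table was taken, which gave 77 neighbours that are not among the 81, at a median distance of 6733 base pairs. By limma, 8 of the 77 (10.4%) rose and 11 (14.3%) fell between 16 and 24 days, where 13.2% and 20.1% of all genes did. Of the 14 neighbours that overlap one of the genes, 0 rose and 3 fell by this test, while 1, Abhd18, was higher by 0.44 at an unadjusted p under 0.05. The largest rises of neighbours were those of Zfp474, a zinc finger gene 6388 base pairs from 1700034E13Rik, by 2.54 ± 0.17 (limma adjusted p 7.34e-06), and of 1700030C12Rik near 1700093K21Rik, by 2.12 ± 0.26 (adjusted p 0.000404). 1700030C12Rik had already risen by 2.21 at 16 days, when 1700093K21Rik had not. Only 1 of the matched genes had another of the 81 as its neighbour, in the pair 4930432E11Rik and 4932431P20Rik on chromosome 7. These rose by 1.12 ± 0.20 and 1.58 ± 0.21.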

How the data were processed

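Testis RNA of 9 samples (3 per age) was hybridised to Affymetrix whole-transcript arrays, per the labels' protocols. The deposited values are log2 values of 28815 array rows. Setting the 38964 blank cells to 0 made the median of each row 0, so that rows had been centred, and blanks were read as 0. The medians of the 9 columns then ran from -0.09 to 0.11. How the arrays were normalized, and the log base, are not given in the sources used here. Rows with 1 gene symbol (21780) were averaged to 19935 genes. Rows with several symbols (1605) or none (5430) stayed out.

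Differences between ages and their standard errors were fitted over all 9 arrays in limma (version 3.58.1 under R 4.3.3) by lmFit with eBayes (2-sided, Benjamini-Hochberg over 19935 genes, threshold 0.05), tested on simulated data. The arrays' number limits the precision, and p-values measure the spread between these samples only. The 81 genes, marker lists and tests were chosen with earlier results of these data known. Genes named with every array value are the 12 with the largest rise, the 3 with the lowest difference from 8 to 16 days and those with several rows. The 4 nearest to each threshold on either side are also named, and further names were chosen after their values were seen. Gene types, neighbours and start-site windows are from RefSeq tables of GRCm38.p6.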

Additional observations from a re-analysis of the deposited data

How the results depend on the processing

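The count of 81 genes was 58 with a second threshold of 1.5, 68 with a first threshold of 0.25 and 85, with 80 shared, with arrays set to a median of 0. This centring moved the median difference of all genes by 0.03 from 8 to 16 days, by 0.09 from 16 to 24 days and by 0.12 from 8 to 24 days. The count was 71 to 89 when each array was left out in turn, and 74 and 75 without replicate 1 of 8 or of 24 days. It became 133 when rows with a Rik symbol among several were kept, because 52 such rows were counted beside the 81 genes. Several of these rows name the same family, as 18 name Sly, so that 133 is not a count of genes. All 81 rose between 16 and 24 days in each alternative but the replicate block, which uses the 6 numbered arrays and gave 79. Since the rule chose the genes by this difference in the same arrays, these calls were largely set in advance. Between 8 and 16 days the 2 calls became 1 with arrays centred on their medians and 0 with the replicate block (3 at an unadjusted p under 0.05). They became 0 with a 2-fold minimum, which the rule itself precludes, and 1 to 3 with 1 array left out. Deviations of each array from the mean of its age were correlated over all genes between arrays of the same number. Replicates 1 and 2 gave -0.14 and -0.46 between 8 and 16 days, and -0.08 and -0.19 between 16 and 24 days. Between 8 and 24 days they gave 0.19 and 0.20, so that the numbers were not taken to pair the samples. The arrays with no number gave 0.45, 0.03 and 0.05 for these intervals, in the same order. Between arrays of different numbers the correlations reached -0.67 (replicate 1 of 8 days with replicate 3 of 16 days). The highest was 0.60, between replicate 1 of 8 days and replicate 2 of 16 days, which are the arrays with higher olfactory receptor values. The fit treated all arrays as independent. ACAATG was in 27.6% of the windows of all chosen genes, in 30.0% of the 50 of protein-coding and in 12.5% of the 8 of long non-coding genes. The cause of these changes was otherwise not tested. For the 12 genes with the largest rise, no alternative ended the call or turned the direction, which their choice by that rise favours. The alternative without the 2 arrays with higher olfactory receptor values was chosen after seeing the data. With 3 arrays per age and values centred by row, absolute levels and small differences before 16 days are out of reach.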

Other observations

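Rows that name several genes were left out of the 81, and some of them had values past the same thresholds. Of 269 rows with a Rik symbol among several, 52 were past both thresholds. Sly, a Y-linked multicopy relative of the synaptonemal complex gene Sycp3 that is active in spermatids, was named in 18 such rows, with differences of 3.68 to 4.63 between 24 and 16 days and of 0.09 to 0.20 between 16 and 8 days. The rows of 1700001F09Rik numbered 7, with differences of 2.92 to 4.17 between 24 and 16 days, those of 4930555G01Rik 9, with 2.81 to 3.62, and those of Speer4 9, with 1.20 to 1.99. Since each such row names several genes, none of these values belongs to one gene.

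Of the 81 genes, 4930444G20Rik had 3 further rows that it shares with other symbols, with differences of 2.57 to 2.72 between 24 and 16 days, against 1.64 in its own row. 1700034I23Rik had 1 shared row at 2.08, against 1.29 in its own row. Of the 5430 rows with no gene symbol, 75 (1.38%) were past both thresholds.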
